A study of Mus musculus with 6 samples.

Results

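The genes described here are 10 genes of vessel growth and vessel stability, 7 of them ligands (Vegfa, Vegfb, Vegfc, Pgf, Angpt1, Angpt2 and Serpinf1) and 3 of them receptors (Flt1, Kdr and Tek). They were taken as a list of names, matched by symbol to the mouse Ensembl identifiers of the count table, and all 10 were found among its 52636 genes. RNA had been counted by single-cell sequencing in 25428 cells of cultured retinal pigment epithelium (RPE, the pigmented layer under the retina) and choroid (the vessel layer behind it). The study had asked how loss of Dram2, a gene of a lysosomal membrane protein, affects these tissues. Both groups were male C57BL/6J mice of 12 to 16 months. The 3 control samples were Dram2 wt/wt, with no other allele or agent given, and the 3 mutant samples were Dram2 ko/ko, a constitutive CRISPR/Cas9 deletion of an exon present in every cell of the animal. Cells of both groups had been dissociated with papain and grown for a week in a medium made for RPE cells, so the values are those of cultured cells without blood flow. How many animals made up a sample was not given in the sources used here, so that the p-values measure the spread between samples only.

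The vascular endothelial growth factors are secreted proteins that act on receptor tyrosine kinases of endothelial cells. VEGF-A (Vegfa) drives endothelial growth and leakage through Kdr, while Flt1 binds VEGF-A, VEGF-B (Vegfb) and placental growth factor (Pgf) and has a soluble form that takes up ligand. VEGF-C (Vegfc) acts mainly on Flt4, the receptor of lymphatic vessels. Angiopoietin 1 (Angpt1), made by cells around vessels, activates the Tie2 receptor (Tek) and quiets the endothelium, and angiopoietin 2 (Angpt2), stored and released by endothelial cells themselves, opposes it in many settings. Serpinf1 encodes pigment epithelium-derived factor (PEDF), a secreted protein that restrains vessel growth. In the eye the RPE is a classical source of VEGF-A for the capillaries beneath it and of PEDF.

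Samples held between 2140 and 6648 cells and between 96808998 and 122746184 unique molecular identifiers (UMIs, each marking 1 captured RNA molecule). Dram2 ko/ko replicate 1 held the fewest cells, with a median of 47373 UMIs per cell against 16453 to 29819 in the other samples. Its share of Fibroblast-like cells, a type described below, was 14.9% against 1.82% to 5.13%. The part of these differences in the genotype values below was not tested. Dram2 itself stood at 33.4, 39.6 and 38.1 CPM (UMIs of the gene scaled to a total of 1e6) in the Dram2 wt/wt samples and at 30.7, 28.3 and 30.1 CPM in the Dram2 ko/ko samples, but the reads come from 3′ ends, outside the deleted exon, and do not check the genotype. The deposited annotation names 8 cell types, of which 4 are fibroblast types with 91.5% of cells, and the 288 Endothelial cells are 1.13%. All 10 of 10 endothelial markers were present in Endothelial cells, at a summed mean level of 11208 CPM against 121 to 587 CPM in the other types. For the cells called Pericyte, most markers went against the name. UMIs of 5 of 8 pericyte markers were present, and through Cspg4 their summed mean level of 238 CPM was the highest of the 8 types, with 209 CPM in Fibroblast cells next. Cspg4 made up 199 CPM of this sum, Pdgfrb was at 29.4 CPM against 93.6 CPM in Fibroblast 2, and Kcnj8, Higd1b and Ndufa4l2 had no UMI. The same cells held all 6 Schwann cell markers, at a summed 1574 CPM against no more than 7.67 CPM in the other types. The deposited name Pericyte is used below as a label only. In RPE cells the list of 10 RPE markers summed to 534 to 1124 CPM in the Dram2 wt/wt and 302 to 1180 CPM in the Dram2 ko/ko samples. Krt18, at 231 to 976 CPM, was the largest part of this sum in every sample, and Otx2 was at 57.5 to 104 CPM. The visual cycle gene Rpe65 lay between 0.174 and 1.75 CPM.

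The upstream sequences of the receptors are shown first, since Flt1, Kdr and Tek, like Angpt2 and Pgf, were higher in Endothelial cells than in any other type. Each run is the 250 bases before the RefSeq gene start, on the GRCm38.p6 assembly and on the strand of the gene, and the capitals mark GGAA or its reverse complement TTCC, the core letters bound by ETS factors, a family active in endothelial genes. Promoters of 8 of the 10 genes were matched by symbol in the RefSeq table, and Angpt1 and Angpt2 were not.
Flt1 (chr5:147726012-147726261, minus strand): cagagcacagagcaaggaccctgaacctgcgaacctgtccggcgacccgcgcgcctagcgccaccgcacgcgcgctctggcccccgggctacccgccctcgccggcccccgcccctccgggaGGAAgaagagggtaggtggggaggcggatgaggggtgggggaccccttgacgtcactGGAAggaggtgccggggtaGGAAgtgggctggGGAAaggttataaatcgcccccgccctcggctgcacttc
Kdr (chr5:75978456-75978705, minus strand): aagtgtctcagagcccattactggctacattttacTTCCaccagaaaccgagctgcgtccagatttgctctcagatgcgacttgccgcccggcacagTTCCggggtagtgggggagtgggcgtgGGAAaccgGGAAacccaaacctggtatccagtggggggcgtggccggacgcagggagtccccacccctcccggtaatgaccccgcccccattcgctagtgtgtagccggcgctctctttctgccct
Tek (chr4:94739039-94739288, plus strand): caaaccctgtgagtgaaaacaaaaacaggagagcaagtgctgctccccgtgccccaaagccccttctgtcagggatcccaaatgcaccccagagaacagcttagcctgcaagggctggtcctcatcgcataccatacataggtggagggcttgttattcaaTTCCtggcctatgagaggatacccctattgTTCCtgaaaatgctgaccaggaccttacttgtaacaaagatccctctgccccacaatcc

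The GGAA core occurred at 4 positions before Flt1, 4 before Kdr and 2 before Tek, counted on both strands, and the median of all 32851 promoter windows of the same length was 3. The member window with the most matches, 6, was 1 of the 2 windows of Vegfa, a ligand highest outside the endothelium, while the other Vegfa window and that of Serpinf1 had 2, those of Vegfb and Vegfc 1, and both windows of Pgf 0. It was present in 93.4% of those windows, so that its presence does not set these genes apart. The longer word AGGAAG, which contains GGAA, occurred at 2 positions before Flt1 and at none before Kdr or Tek, and 29.5% of all windows held it. The hypoxia response core, ACGTG or GCGTG, was found before Flt1 and Kdr and not before Tek. It was also found before Vegfb and Serpinf1, in 1 of the 2 windows of Pgf and in 1 of the 2 windows of Vegfa. That Vegfa window (chr17:46025164-46025413) lies inside the gene, and the window before the Vegfa gene start held no match. Both Pgf windows also lie inside the gene as annotated for the count table, and the Serpinf1 window lies partly inside its gene. Of all windows, 38.6% held this core. These are letter matches in a window and no measure of binding.

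Across cell types, Vegfa was highest in Fibroblast 2, a fibroblast type with 3019 cells. It stood there at 246, 255 and 261 CPM in the Dram2 wt/wt samples, and at 308, 224 and 265 CPM in the Dram2 ko/ko samples. Every Fibroblast 2 sample lay above every sample of the next type, Fibroblast, where the level was 113, 114 and 109 CPM and 148, 124 and 112 CPM in the same order. Fibroblast proliferating cells (119 ± 11.7 CPM, SD, n = 6) and Fibroblast cells (120 ± 14.6 CPM) were not separated. RPE cells held 60.2 ± 8.85 CPM and Endothelial cells 60.3 ± 17.8 CPM, both below every sample of these 3 fibroblast types. The types had been formed by clustering on the same counts, so levels across types are descriptions and carry no test.

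**Figure D1:**
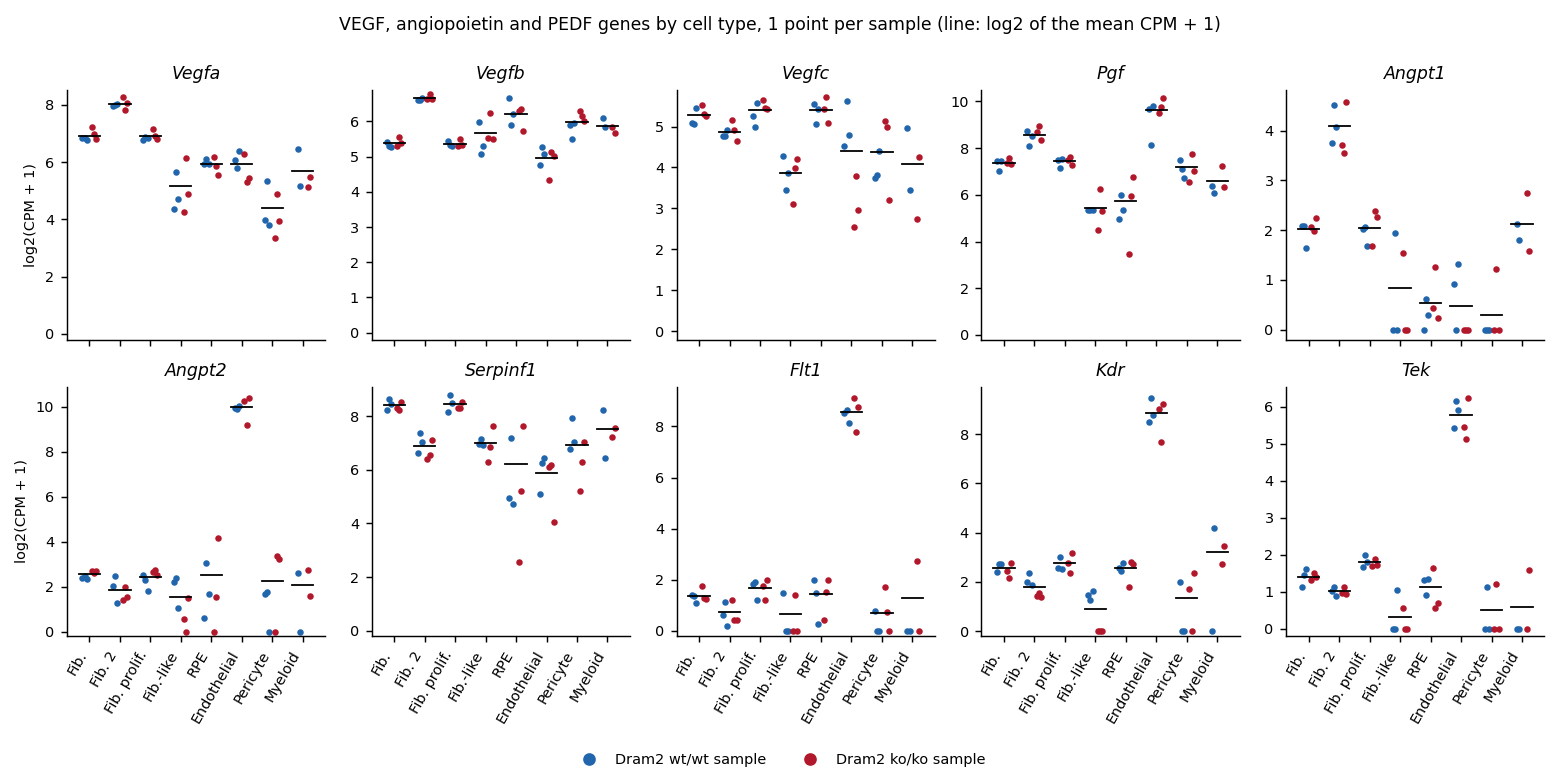
Level of each gene in the 8 cell types, as log2(CPM + 1), with 1 point per sample (Dram2 wt/wt in blue, Dram2 ko/ko in red), a line at log2 of the mean CPM + 1 over samples with 10 or more cells, and axes that differ between panels. Vegfa, Vegfb and Angpt1 peak in Fibroblast 2, and Angpt2, Flt1, Kdr and Tek stand apart in Endothelial cells.

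Vegfb, which binds Flt1, was also highest in Fibroblast 2, at 99.9 ± 4.30 CPM over the 6 samples. The RPE came next with 73.5 ± 17.4 CPM, and 1 of its samples, Dram2 wt/wt replicate 1 at 101 CPM, reached into the range of Fibroblast 2. Fibroblast cells held 40.6 ± 3.03 CPM and Endothelial cells, the lowest of the 8 types, 30.3 ± 6.55 CPM. Vegfc, the lymphatic growth factor, had a flatter pattern: Fibroblast proliferating, RPE and Fibroblast cells held 41.4 ± 6.62, 41.2 ± 7.53 and 38.2 ± 5.11 CPM, and these 3 types overlapped sample by sample. The level in Fibroblast-like cells, a type of low UMI count with a median of 4825 per cell, was 13.7 ± 4.23 CPM. Of its 1121 cells, 168 formed a group with a median of 91.05% mitochondrial counts (sub-cluster 8 below).

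Pgf, which binds Flt1 but not Kdr, was highest in the Endothelial cells themselves. It stood there at 824, 282 and 888 CPM in the Dram2 wt/wt samples, and at 735, 860 and 1136 CPM in the Dram2 ko/ko samples. Only Dram2 wt/wt replicate 2 fell within the range of Fibroblast 2 (272 to 495 CPM), the second type in the order. With each cell thinned to 4000 UMIs, 71.3% of Endothelial cells carried a Pgf UMI (199 of 279 cells), against 57.2% in Fibroblast 2 and 40.2% in Fibroblast. The share in Myeloid cells was 14.8%, with 12 of 81 cells. Without thinning, the shares were 83.3%, 85.6%, 79.4% and 48.8% in the same order, with median depths of 9262.5, 18394, 26108 and 16550 UMIs per cell.

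The angiopoietins were split between types. Angpt2 was counted at 969, 937 and 1037 CPM in the Endothelial cells of the Dram2 wt/wt samples and at 1229, 579 and 1321 CPM in those of the Dram2 ko/ko samples. The next type, Fibroblast, held 4.82 ± 0.646 CPM, a mean 210-fold lower. After thinning, 86.4% of Endothelial cells had an Angpt2 UMI (95% Wilson interval 81.9% to 89.9%), against 1.92% of Fibroblast and 3.26% of Pericyte cells. Without thinning the 3 shares were 94.4%, 8.23% and 5.84%. Angpt1, the opposing ligand, was low everywhere and highest in Fibroblast 2, at 12.6, 21.8 and 15.8 CPM in the Dram2 wt/wt samples, and at 12.2, 10.8 and 23.0 CPM in the Dram2 ko/ko samples. That was 4.74 times the mean of the next type, Myeloid. In Endothelial cells only 2 Angpt1 UMIs were counted in all 6 samples.

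Serpinf1 was highest in a pair of fibroblast types. It stood at 302, 399 and 355 CPM in the Fibroblast cells of the Dram2 wt/wt samples and at 312, 300 and 370 CPM in those of the Dram2 ko/ko samples. Fibroblast proliferating cells were at the same height (348 ± 55.5 CPM), and Myeloid cells came next with 181 ± 90.5 CPM (n = 4). Fibroblast-like (129 ± 39.5 CPM), Pericyte (121 ± 69.6 CPM) and Fibroblast 2 cells (118 ± 31.7 CPM), the last with the most Vegfa, overlapped with each other. In RPE cells the samples did not form 1 level: Serpinf1 was at 29.8, 144 and 25.2 CPM in the Dram2 wt/wt samples and at 4.91, 35.8 and 198 CPM in the Dram2 ko/ko samples. The 2 high samples, replicate 2 of the Dram2 wt/wt group and replicate 3 of the Dram2 ko/ko group, held 539 and 575 RPE cells, while the other 4 held 56, 152, 68 and 102. Those 2 samples also had the lowest Krt18 (420 and 231 CPM, against 739 to 976 CPM) and the lowest Mitf (4.62 and 2.84 CPM, against 10.5 to 12.4 CPM) in RPE cells. Their RPE cells held the most Angpt2 as well, 7.24 and 16.6 CPM against 0 to 2.17 CPM. The part of these differences between samples in the Serpinf1 values was not tested.

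All 3 receptors had their highest level in Endothelial cells, with no overlap with any sample of another type. Kdr, the main VEGF-A receptor, was at 362, 701 and 436 CPM in the Dram2 wt/wt samples and at 511, 202 and 597 CPM in the Dram2 ko/ko samples. Flt1 was at 372, 403 and 280 CPM and at 550, 219 and 428 CPM in the same order. Tek, the angiopoietin receptor, was at 42.1, 70.5 and 59.7 CPM and at 43.2, 34.3 and 74.4 CPM. Dram2 ko/ko replicate 2 was the lowest of the 6 samples for Kdr, Flt1, Tek and Angpt2 alike.

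The receptors were not found in every Endothelial cell at this depth. With cells thinned to 4000 UMIs, 67.0% of 279 Endothelial cells carried a Kdr UMI, 67.4% a Flt1 UMI and 17.9% a Tek UMI. Both Kdr and Flt1 were seen in 50.9% (45.1% to 56.7%), and none of the 3 receptors in 14.3% (10.7% to 18.9%). Without thinning, where the median Endothelial cell had 9262.5 UMIs, the last share was 4.86%, and Kdr was seen in 84.0%, Flt1 in 87.8% and Tek in 41.3% of cells. In Pericyte cells, thinned alike, Flt1 was seen in 0.651% and Tek in 0.326%. Vegfa and Kdr were counted in the same cell in 9.32% of thinned Endothelial cells, and Pgf and Flt1 in 48.7%. Wilson intervals cover counting error only.

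**Figure D2:**
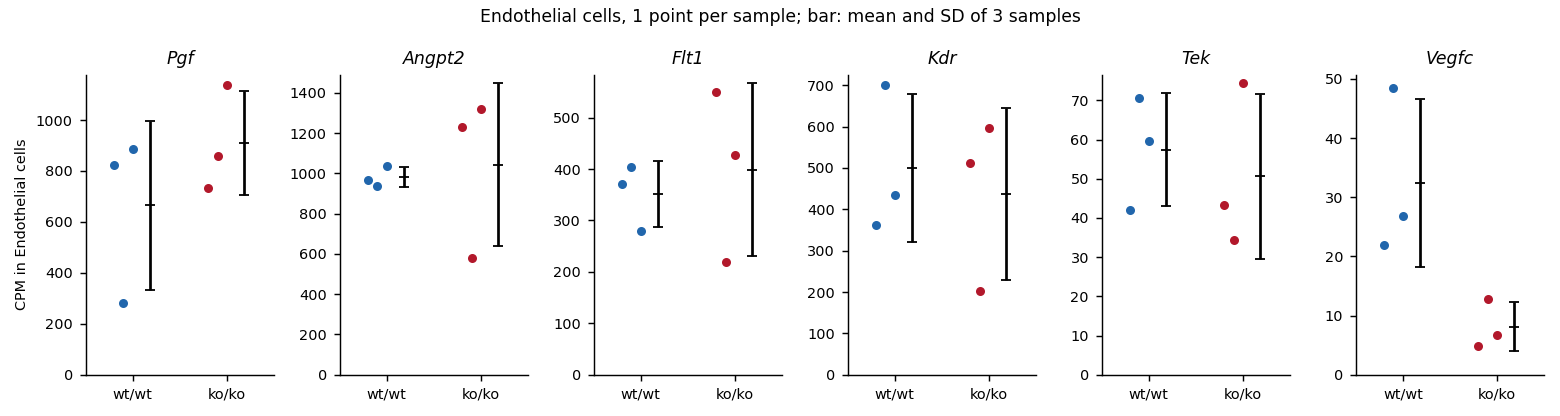
Level in Endothelial cells (CPM, axes from 0) of the 6 genes named in the panels, with 1 point per sample and the mean and SD of the 3 samples of each genotype. The genotypes overlap for Pgf, Angpt2, Flt1, Kdr and Tek, and the 3 Dram2 ko/ko points of Vegfc lie below the 3 Dram2 wt/wt points.

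A low level of receptor RNA was counted outside the Endothelial type. Kdr was at 4.86 ± 0.947 CPM in Fibroblast and 4.90 ± 1.34 CPM in RPE cells. A Kdr UMI was seen in 1.75% of thinned Fibroblast cells (220 of 12578, interval 1.53% to 1.99%), against 0.326% of Pericyte cells (1 of 307) and 0.111% of Fibroblast cells for the endothelial adhesion gene Pecam1. Without thinning the 3 shares were 10.4%, 1.62% and 0.759%. In Endothelial cells there were 0.366 to 1.09 Kdr UMIs for each Pecam1 UMI, depending on the sample. In Fibroblast cells there were 12.5 to 22.6, above the Endothelial ratio in all 6 samples. The same ratio of Tek to Pecam1 was 0.0623 to 0.110 in Endothelial and 3.41 to 7.71 in Fibroblast cells, and that of Flt1 was 0.397 to 0.858 and 4.10 to 9.67. The higher ratio was not particular to the receptors. Angpt2 had 1.05 to 1.92 UMIs per Pecam1 UMI in Endothelial and 12.4 to 22.8 in Fibroblast cells, and the endothelial markers Cdh5 and Emcn had 1.19 to 1.91 and 5.90 to 7.56 in Endothelial against 16.9 to 33.6 and 1180 to 2153 in Fibroblast cells. Of the endothelial markers read in this way, the tight junction gene Cldn5 alone went the other way, with 0.327 to 0.457 in Endothelial and 0.0714 to 0.188 in Fibroblast cells. The Fibroblast ratios rest on 99 Pecam1 UMIs in all, and they depend on the reference gene. Cdh5 had 2342 UMIs in Fibroblast and 3413 in Endothelial cells, Flt1 565 and 1316, Angpt2 1727 and 3593, Kdr 1779 and 1595, and Tek 606 and 187. Set against Cdh5, Flt1 and Angpt2 were lower in Fibroblast than in Endothelial cells, and Kdr and Tek were higher.

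Most UMIs of each ligand other than Angpt2 were counted in fibroblasts, which also made up most of each culture. The 4 fibroblast types contained 96.6 ± 2.55% of the Vegfa UMIs of a sample, with 92.4 ± 5.26% of all UMIs. For Serpinf1 this share was 97.0 ± 3.76%, for Angpt1 99.0 ± 0.512%, for Pgf 94.3 ± 3.91%, for Vegfc 93.1 ± 4.82% and for Vegfb 90.4 ± 5.55%. For Angpt2 it was 42.7 ± 12.6%. Fibroblast 2 alone held 20.1 ± 6.40% of Vegfa and 36.7 ± 5.03% of Angpt1 UMIs, with 10.2 ± 4.13% of all UMIs. RPE cells held 2.82 ± 2.52% of Vegfa and 2.35 ± 3.73% of Serpinf1 UMIs, below their 5.93 ± 5.44% of all UMIs.

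Angpt2 and receptor UMIs were shared out differently. Endothelial cells held 0.532 ± 0.233% of all UMIs, but 51.6 ± 13.5% of Angpt2, 52.7 ± 9.67% of Flt1, 32.3 ± 8.53% of Kdr and 13.9 ± 5.53% of Tek UMIs. Most Kdr UMIs (63.3 ± 8.21%) and Tek UMIs (83.0 ± 5.76%) were counted in fibroblast types, at a low level per cell. How much of this was free RNA taken up with the fibroblasts was not estimated.

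**Figure D3:**
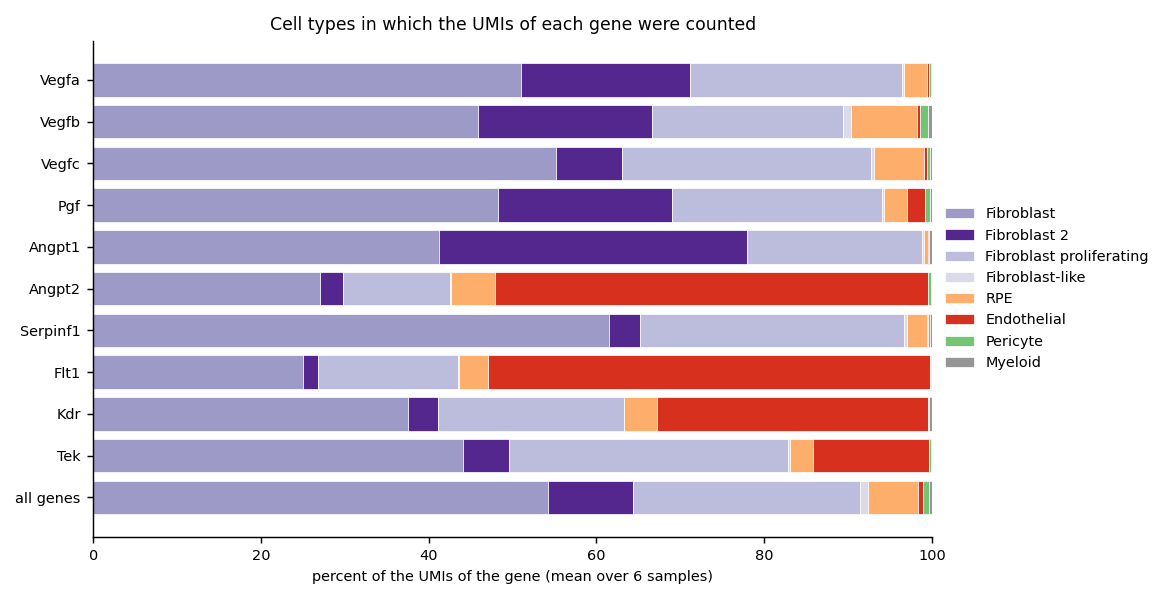
Percent of the UMIs of each gene that was counted in each of the 8 cell types, as the mean over 6 samples, with all genes together in the lowest bar. Endothelial cells (red) hold 51.6% of Angpt2 and 52.7% of Flt1 UMIs, and 0.532% of the UMIs of all genes.

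Within the fibroblasts, the deposited annotation also numbers 9 sub-clusters, and 2 of them stood out for these genes. Sub-cluster 7, with 214 cells from all 6 samples, held Flt1 at 20.3, 52.9 and 42.3 CPM in the Dram2 wt/wt samples and at 41.6, 32.4 and 22.6 CPM in the Dram2 ko/ko samples. In the largest sub-cluster, 1, the mean was 1.32 CPM. Angpt2 was between 40.7 and 58.4 CPM in sub-cluster 7, against a mean of 2.91 CPM in sub-cluster 1, and Vegfa was at 281 ± 34.2 CPM, the highest mean of the 9. Kdr (2.79 CPM) and Tek (0.321 CPM) were not raised there, and Pecam1 had 1 UMI. Thinned to 4000 UMIs, 9.43% of sub-cluster 7 cells had a Flt1 UMI (6.19% to 14.1%) and 0.472% a Kdr UMI, and without thinning these shares were 24.3% and 4.21%. This sub-cluster also had the highest mean of the 9 for 5 of 8 pericyte markers, with Ndufa4l2 at 98.1 CPM, Pdgfrb at 333 CPM, Cspg4 at 142 CPM, Abcc9 at 8.23 CPM and Higd1b at 2.31 CPM. Kcnj8 (15.2 CPM), Notch3 (28.1 CPM) and Rgs5 (108 CPM) had higher means elsewhere. Those were 18.5 CPM in sub-cluster 3 for Kcnj8, and 48.9 and 326 CPM in sub-cluster 4 for the others. The contractile gene Myh11 was at 264 to 450 CPM in sub-cluster 7, against a mean of 58.7 CPM in the next sub-cluster. Sub-cluster 7 contributed 7.04 ± 4.91% of all Flt1 UMIs from 0.701% of all UMIs.

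Sub-cluster 4, with 1558 cells, held the most Vegfc. It stood at 55.0, 50.7 and 68.2 CPM in the Dram2 wt/wt samples, and at 97.5, 77.7 and 68.5 CPM in the Dram2 ko/ko samples, above every sample of each of the other sub-clusters. Angpt2 was at 16.8 CPM there, the second highest mean. Of the pericyte markers, Rgs5 (326 CPM) and Notch3 (48.9 CPM) had their highest mean there, Kcnj8 in sub-cluster 3 and the rest in sub-cluster 7. Sub-cluster 3 makes up nearly all of Fibroblast 2 (2964 of 3019 cells), but 811 of its 3790 cells are of the Fibroblast type. In it, Vegfa was at 243 CPM, Pgf at 342 CPM, Vegfb at 88.4 CPM and Angpt1 at 15.5 CPM. Sub-cluster 6, a small group of low UMI count with a median of 4766 per cell, held the most Serpinf1 (526 CPM). Its cells had a median of 21.01% mitochondrial counts, a sign of low RNA quality, against 1.94% to 3.69% in sub-clusters 1 to 5, 7 and 9. The part of this in the Serpinf1 level was not tested. Sub-cluster 8, with 168 cells, all Fibroblast-like, had a median of 91.05% mitochondrial counts and of 3150 UMIs per cell. Another 168 Fibroblast-like cells were in sub-cluster 6. The sub-clusters were formed from the same counts, and no test was made between them.

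**Figure D4:**
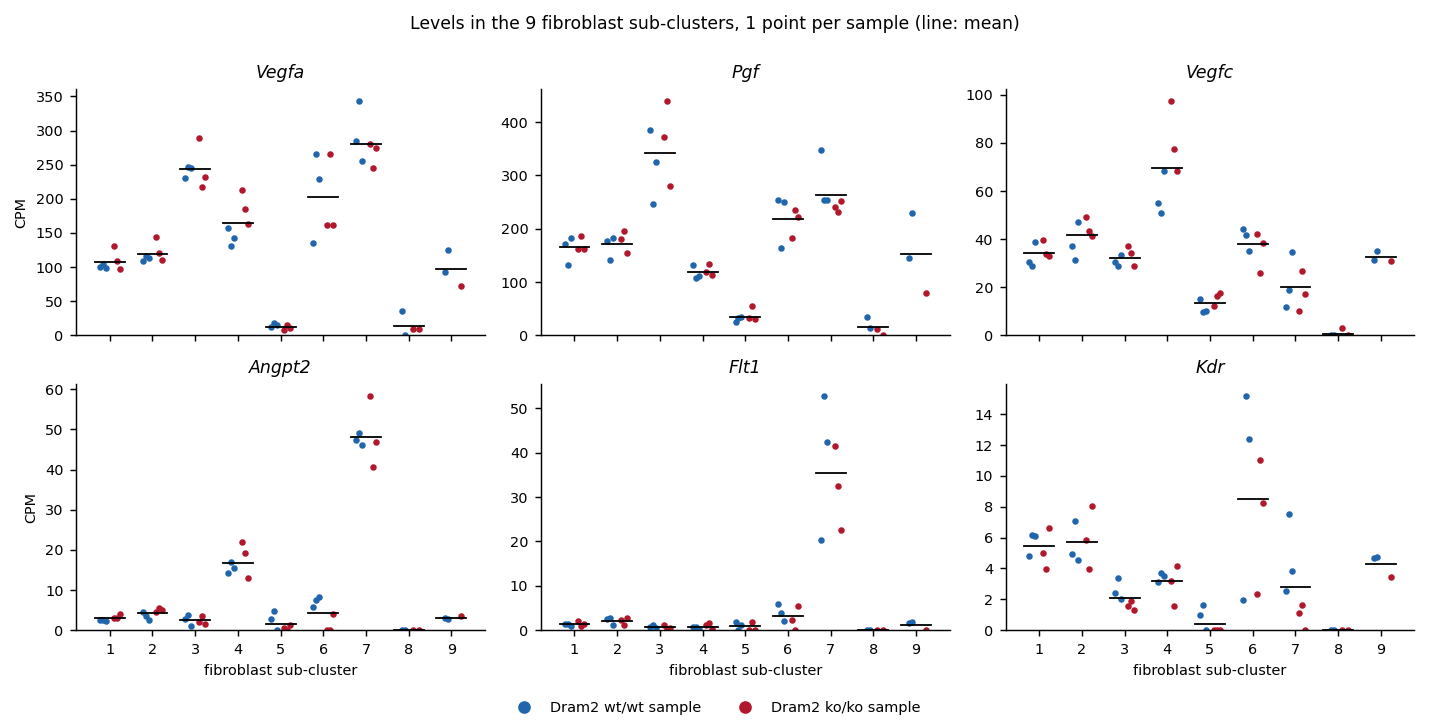
Levels (CPM, axes from 0 and different between panels) of 6 genes in the 9 fibroblast sub-clusters, with 1 point per sample of 10 or more cells and a line at the mean. Sub-cluster 7 stands apart for Flt1 and Angpt2 but not for Kdr, and sub-cluster 4 for Vegfc.

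Other genes of the same pathways were read from a list of 10. Tie1, the partner of Tek, was at 96.3 CPM in Endothelial cells and at 0.745 CPM or less in the other types. Ptprb, a phosphatase that silences Tek, was at 368 CPM in Endothelial cells and at 35.8 CPM in the next type. The co-receptors Nrp1 (277 CPM) and Nrp2 (486 CPM) were also highest there but present in every type, down to 42.0 and 45.1 CPM in Fibroblast-like cells. Flt4, the receptor of Vegfc, was at 72.1 CPM in Endothelial and 27.3 CPM in Fibroblast proliferating cells. Vegfd and Angpt4 did not exceed 5.22 and 3.98 CPM in any type. Among candidate receptors of PEDF, Plxdc2 was at 161 CPM in Fibroblast cells, Pnpla2 at 92.4 CPM in Endothelial cells, and Plxdc1 at no more than 3.81 CPM. Among genes that respond to VEGF in endothelium, Esm1 was at 2705 CPM and Apln at 1138 CPM in Endothelial cells.

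For each member the 3 genes with the most similar pattern were sought by Pearson correlation of log2(CPM + 1) over 46 sums of a sample and cell type, among 11156 genes. The sums share samples, types and depth, so the values are descriptions. Flt1 went with Adgrf5 (r = 0.98), Exoc3l2 (0.97) and Arhgef15 (0.97), Kdr with Adgrl4 (0.94), Exoc3l2 (0.93) and Kank3 (0.93), and Tek with B3gnt3 (0.97), Ace (0.96) and Exoc3l2 (0.96). Angpt2 went with Esam (0.97), Arhgef15 (0.96) and Adgrf5 (0.95). Angpt1 went with Il11 (0.89), Sod3 (0.89) and Nr4a2 (0.87), and Il11 reached 5711 CPM in Fibroblast 2. Vegfa went with Mpzl1 (0.89), Errfi1 (0.88) and Osmr (0.87), Pgf with Grasp (0.92), Msl3l2 (0.88) and Lysmd2 (0.88), and Serpinf1 with Prrx1 (0.91), Antxr1 (0.87) and Cyp1b1 (0.84). The nearest patterns were less close for Vegfb, with Tmem126a (0.85), Sod2 (0.83) and Denr (0.83), and for Vegfc, with Tmem53 (0.81), Lrrc4c (0.79) and Ptpn22 (0.76). Among members, Flt1, Kdr, Tek and Angpt2 correlated with each other at 0.90 to 0.94, and Vegfa with Angpt1 at 0.77.

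Between genotypes, no member passed the test in the sums over whole samples (voom-limma, Benjamini-Hochberg adjusted p under 0.05). None of all 22580 genes tested did either (0%), although 1583 genes had an unadjusted p under 0.05, none of them a member. That 0 depended on the tool and the samples: the edgeR quasi-likelihood test also called 0 genes, while DESeq2 called 378, voom-limma called 242 once replicate 1 of the Dram2 ko/ko group was left out and 117 once its replicate 3 was, and no member was among them. In such sums, a change in the number of cells of a type and a change in RNA per cell cannot be told apart. Vegfa was at 125, 117 and 116 CPM in the Dram2 wt/wt samples and at 165, 133 and 113 CPM in the Dram2 ko/ko samples, which overlapped (log2 fold change 0.20, SE 0.13, adjusted p = 0.912), and the value was 0.049 without Dram2 ko/ko replicate 1. Kdr had the largest negative value, at 7.82, 8.54 and 7.51 CPM against 6.39, 4.25 and 8.33 CPM (log2 fold change -0.36, SE 0.20, adjusted p = 0.875). Leaving out Dram2 ko/ko replicate 2 gave -0.12, and leaving out Dram2 ko/ko replicate 3 gave -0.59. Endothelial cell markers moved with it, 9 of 10 with negative values and a median of -0.28, 1 of them with an unadjusted p under 0.05, and Endothelial cells held 0.994%, 0.403% and 0.546% of all UMIs in the Dram2 wt/wt and 0.430%, 0.416% and 0.403% in the Dram2 ko/ko samples. The shares overlapped, and the gap between their means rested mostly on Dram2 wt/wt replicate 1. The part of these in the Kdr value was not tested. Angpt1 had the largest positive value, at 4.22, 4.02 and 2.84 CPM against 4.16, 4.28 and 4.68 CPM (log2 fold change 0.29, SE 0.17, adjusted p = 0.891), with 0.10 once Dram2 wt/wt replicate 3 was left out. Of the 10 members 5 had positive and 5 negative values, with a median of 0.04 against 0.00 over all genes.

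Within cell types no member was called in any of the 8 types. The members that passed the filter on low counts were 10 each in Fibroblast and Fibroblast proliferating, 9 each in Fibroblast 2 and Endothelial, 6 in RPE, 5 each in Fibroblast-like and Pericyte, and 4 in Myeloid cells, where 2 samples stood against 2. The share of all genes called was low as well: 0% in RPE, Endothelial and Fibroblast-like cells, 0.00503% in Fibroblast, 0.0118% in Pericyte, 0.0296% in Myeloid, 0.222% in Fibroblast 2 and 0.624% in Fibroblast proliferating cells. These shares moved widely with the setting. The 1 gene called in Fibroblast cells became 320 with DESeq2 and 234 without Dram2 ko/ko replicate 1, the 33 in Fibroblast 2 ranged from 0 to 168, and the 113 in Fibroblast proliferating cells from 0 to 320, with no member called at any setting. The genotypes did not overlap for 4 members that passed the filter: 1 of 10 in Fibroblast (11.6% of all genes tested), 1 of 9 in Fibroblast 2 (11.4%), 1 of 9 in Endothelial (10.5%) and 1 of 5 in Pericyte cells (10.7%). There were 0 such members over the whole sample (11.5%), in Fibroblast proliferating (11.3%), in Fibroblast-like (8.4%) and in RPE cells (7.57%). These counts are near those of all genes.

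In the types where the ligands were highest, no genotype difference passed the test. Vegfa in Fibroblast 2 had a log2 fold change of 0.06 (SE 0.11), Vegfb 0.06 (SE 0.09) and Angpt1 -0.17 (SE 0.27). In Fibroblast proliferating cells Vegfc had 0.23 (SE 0.14) and Serpinf1 -0.10 (SE 0.14), and Serpinf1 in Fibroblast cells had -0.10 (SE 0.12). In RPE cells, the classical source of both factors, Vegfa had -0.15 (SE 0.20) and Serpinf1 -0.14 (SE 1.27), the latter with the spread between samples described above. In the same RPE sums, all 8 of 8 RPE markers tested had negative values (median -0.53, none at an unadjusted p under 0.05), as had 7 of 7 fibroblast markers (median -0.96), and the part of either list was not tested. In Endothelial cells Pgf had 0.62 (SE 0.34), Angpt2 0.03 (SE 0.25), Flt1 0.12 (SE 0.28), Kdr -0.25 (SE 0.34) and Tek -0.12 (SE 0.31), and 4 of these 5 values were smaller than their standard error. The Pgf value was 0.10 without Dram2 wt/wt replicate 2 and at most 0.92 with any other sample left out. With all 6 samples, each of these adjusted p was 0.920 or more.

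**Figure D5:**
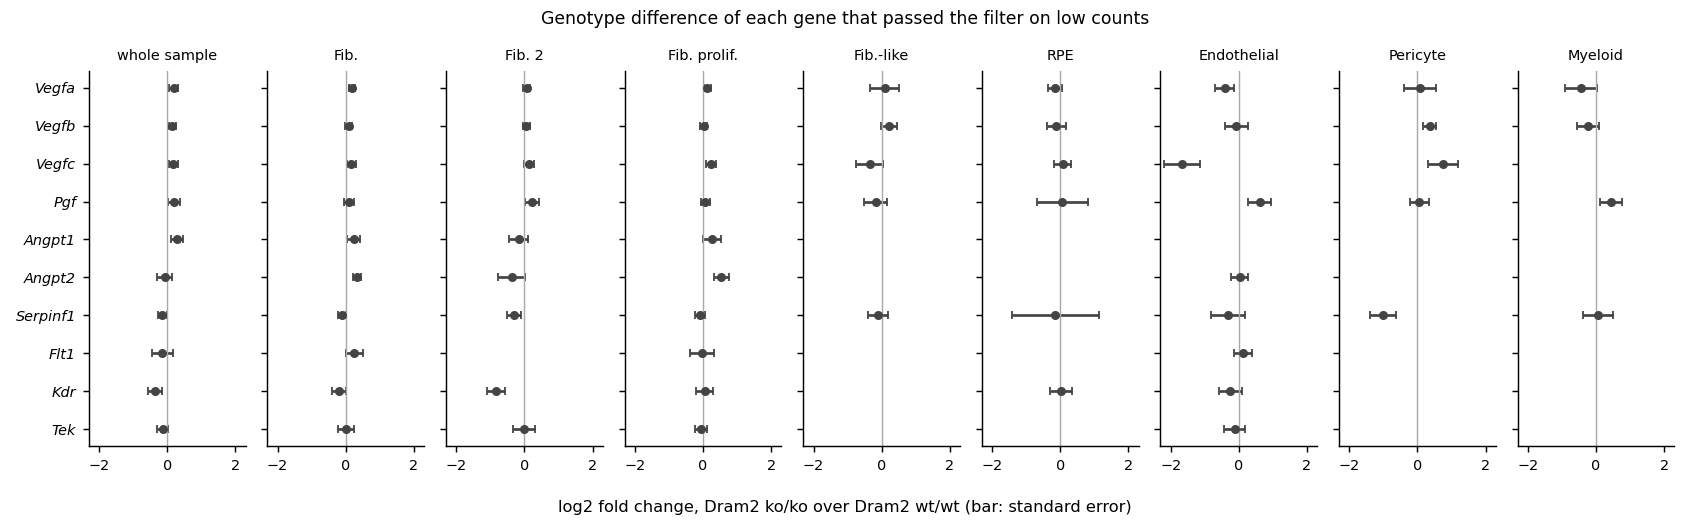
Log2 fold change of Dram2 ko/ko over Dram2 wt/wt for each gene that passed the filter on low counts, over the whole sample and in each cell type, with bars of 1 standard error on a common axis. The Vegfc value in Endothelial cells (-1.67) and the Serpinf1 value in Pericyte cells (-1.02) lie farthest from 0, and none passed an adjusted p of 0.05.

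Among values with an unadjusted p under 0.05, that of Vegfc in Endothelial cells was the largest. It stood at 21.9, 48.5 and 26.9 CPM in the Dram2 wt/wt samples, and at 4.80, 12.9 and 6.76 CPM in the Dram2 ko/ko samples, which did not overlap (log2 fold change -1.67, SE 0.53, adjusted p = 0.746). The counts behind it were 25, 22 and 18 UMIs against 2, 6 and 3 UMIs. The same cells carried fibroblast markers at a summed 673 to 1997 CPM in the Dram2 wt/wt and 793 to 1164 CPM in the Dram2 ko/ko samples, all 7 of 7 markers above 0, and lymphatic endothelial markers at a summed 84.2 to 172 CPM and 24.8 to 94.4 CPM. In the fit per gene, 3 of the 4 fibroblast markers tested had negative values (median -0.74, lowest -1.96), as had all 3 smooth muscle markers tested (median -0.60), and the 1 lymphatic marker tested had -1.06 with an unadjusted p under 0.05. The part of these lists in the Vegfc value was not tested. Kdr in Fibroblast 2 was at 2.98, 4.15 and 2.68 CPM against 1.67, 1.94 and 1.59 CPM (log2 fold change -0.84, SE 0.26, adjusted p = 0.410), from 158 UMIs in all. Angpt2 was at 4.28, 4.54 and 4.01 CPM against 5.53, 5.01 and 5.54 CPM in Fibroblast cells (log2 fold change 0.33, SE 0.12, adjusted p = 0.515). In Fibroblast proliferating cells, 4.69, 3.83 and 2.54 CPM stood against 5.19, 5.76 and 4.68 CPM (log2 fold change 0.54, SE 0.22, adjusted p = 0.618), and the value was 0.30 without Dram2 wt/wt replicate 3. Of the Fibroblast cells, 1543 were in sub-cluster 4 and 185 in sub-cluster 7, where Angpt2 was at 16.8 and 48.1 CPM. In sub-cluster 1, with 9727 of them, its mean was 2.43 CPM in the Dram2 wt/wt and 3.39 CPM in the Dram2 ko/ko samples. The part of the sub-clusters in the Angpt2 values was not tested. The Serpinf1 value in Pericyte cells was -1.02 (log2 scale, SE 0.38, adjusted p = 0.733) with overlapping groups. Fibroblast markers summed to 6134 to 6965 CPM in the Dram2 wt/wt and 4669 to 6345 CPM in the Dram2 ko/ko Pericyte cells. All 5 of the 5 tested had negative values (median -0.32, lowest -1.34), 2 of them at an unadjusted p under 0.05, against 499 of all 8454 genes. Their part in the Serpinf1 value was not tested. None of these passed the correction over all genes. Vegfb in Pericyte cells, whose groups did not overlap, was at 58.7, 44.2 and 60.9 CPM against 77.2, 69.8 and 64.0 CPM, with an unadjusted p of 0.0936 (log2 fold change 0.36, SE 0.20, adjusted p = 0.859).

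Whether the genotype difference itself differed between Fibroblast and another type was tested with an interaction term, with the sample as a factor. No member was called, of 6 tested in RPE against Fibroblast and of 9 tested in Endothelial against Fibroblast. In the former, 0% of 12250 genes were called, with 151 at an unadjusted p under 0.05 and 0 called by edgeR. In the latter, 0.0151% of 6642 genes were called, with 262 at an unadjusted p under 0.05. Vegfc had the smallest p, 0.000694 unadjusted, with a difference of -1.91 (SE 0.42, adjusted p = 0.999) between Endothelial and Fibroblast cells. In that fit 3 of 4 fibroblast markers had negative differences (median -0.63, lowest -2.23, 1 at an unadjusted p under 0.05), as had 3 of 3 smooth muscle markers (median -0.57) and the 1 lymphatic marker (-0.87), and their part was not tested. For Vegfa the difference between RPE and Fibroblast cells was -0.34 (SE 0.12, adjusted p = 1.00), and -0.21 without Dram2 ko/ko replicate 3. Fibroblast markers moved with it: all 7 of 7 had a negative difference in the same fit, with a median of -1.17 and 3 at an unadjusted p under 0.05, and their summed level in RPE cells was 576 to 1215 CPM in the Dram2 wt/wt and 348 to 585 CPM in the Dram2 ko/ko samples. Their part in the Vegfa value was not tested. The share of Vegfa UMIs in the 4 fibroblast types was 98.3%, 93.3% and 97.5% in the Dram2 wt/wt and 98.5%, 98.7% and 93.5% in the Dram2 ko/ko samples, a difference of 0.526 percentage points (exact two-sided permutation p = 0.5, where 0.1 is the smallest that 3 samples against 3 allow).

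Genes around the pathway gave the same count. Of the 10 other VEGF, Tie and PEDF pathway genes, 7 were tested in Endothelial cells and 10 over the whole sample, and none was called in any comparison. Of 8 endothelial VEGF response genes, 5 were tested in Endothelial cells, 4 with positive values. The values ran from -0.23 to 0.58, and the smallest adjusted p (voom-limma) was 0.920. The median of the 5 was 0.21, against 0.00 over all genes in that type. An unadjusted p under 0.05 was found for 2 of them, and for 350 of all 6682 genes tested there. In the other types the median of this list ran from -0.94 in Myeloid cells (1 gene tested) to 0.26 in Fibroblast cells (6 genes tested), with -0.42 in RPE cells. Of 15 hypoxia response genes, which include targets of the factor that also induces Vegfa, 13 were tested in Endothelial cells. Of these, 10 had positive values and 3 an unadjusted p under 0.05, beside the same 350 of 6682 genes, with a median of 0.31. In whole-sample sums 15 were tested, and their median was 0.12. In the other types it ran from -0.13 in Fibroblast-like to 0.17 in Myeloid cells. None of the genes of these lists was called in any type. In the same Endothelial sums, 3 of 4 fibroblast markers (median -0.74) and 3 of 3 smooth muscle markers (median -0.60) had negative values. Of 10 endothelial cell markers, 7 had positive values (median 0.08). The part of these markers was not tested.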

How the data were processed

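Single-cell RNA sequencing had been done with the 10x Genomics 3′ v2 chemistry on 6 samples, 5 in batch 1 and 1 (Dram2 ko/ko replicate 3) in batch 2. The authors deposited a table of raw UMI counts of 52636 genes in 25428 cells, made against the mouse genome mm10 (GRCm38, exons only; the submitters' processing notes name Cell Ranger 3.1.0), and a table with the sample, cell type and fibroblast sub-cluster of each cell, which they had obtained by clustering in Seurat. The filters applied to cells before deposit are not given in the sources used here. Symbols came from GENCODE M21 for 52489 genes. None of the members shares an exact match of 31 bases in its last 400 bases with a transcript of another gene.

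Counts were summed per sample, and per sample and cell type where 10 or more cells were present. After filterByExpr and TMM scaling (edgeR 4.0.16), sums were tested with voom-limma (limma 3.58.1, R 4.3.3) over all genes, with Benjamini-Hochberg adjustment. With all samples in, types with fewer than 2 samples in either genotype were left untested. Fits that left out a sample in Myeloid cells fell below this limit and were still run. The step was tested on simulated data. Levels are CPM of the UMIs of the sum, which carry no length term since reads come from 3′ ends, and levels are compared within a gene. Shares of cells with a UMI were taken after thinning each cell to 4000 UMIs, which left out 219 Dram2 wt/wt and 333 Dram2 ko/ko cells. Intervals are 95% Wilson intervals.

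Scrublet (scanpy 1.11.5) called 6 doublets (0.0236%). A share this low was not taken as a usable call, whether doublets had been removed before deposit is not given in the sources used here, and no cell was removed. Cell names are running numbers, so cell barcodes shared between libraries could not be counted. Genes were named by rule: all members, the 10 other pathway genes, list genes that were called, and the 3 genes most like each member, among genes with a mean of 10 CPM or more in at least 1 type. Il11, the markers quoted for sub-clusters and RPE cells, Esm1 and Apln were chosen after their values were seen. The members and lists were chosen with earlier results of these data known. Alternatives were the edgeR quasi-likelihood test, DESeq2 1.42.0, its size factors, library size only, no filter on low counts, the batch, a replicate block, leaving out each sample, a cell filter (under 500 genes or over 20% mitochondrial counts) and leaving out the 5% of cells with the highest doublet scores.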

Additional observations from a re-analysis of the deposited data

How the results depend on the processing

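No member was called under any of the 15 alternatives, and the smallest adjusted p of a member in any fit was 0.193. Of 32 log2 fold changes followed through the alternatives, 21 kept their direction under every alternative run for them, among them Vegfc in Endothelial cells (nearest to 0 at -1.40 with 1 sample left out) and Kdr in Fibroblast 2 (-0.94 to -0.71). The 2 interaction values among the 32 were refitted with edgeR and with 1 sample left out only, and Vegfc in Endothelial cells, with its interaction, gave no value once replicate 3 of Dram2 wt/wt was left out, and the former none without the highest doublet scores, since the gene did not pass the filter on low counts there. Some signs changed under other settings. Vegfa in RPE cells was 0.086 with the batch as a covariate, which leaves out Dram2 ko/ko replicate 3. Serpinf1 in RPE cells was 0.28 with edgeR, 0.28 with DESeq2 and 0.34 without the highest doublet scores. Angpt2 in Endothelial cells was -0.010 with library size only, -0.0029 without a filter on low counts, -0.19 with the batch as a covariate and -0.011 without the highest doublet scores. The causes were not tested.

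Leaving out 1 sample at a time changed the sign of 11 of the 32. Over the whole sample, Angpt2 ran from -0.23 to 0.15 and Flt1 from -0.41 to 0.14, both positive once replicate 1 of Dram2 wt/wt, or replicate 2 of Dram2 ko/ko, was left out. The other whole-sample values kept their sign but not their size: Kdr ran from -0.59 to -0.12, Serpinf1 from -0.27 to -0.046, Tek from -0.24 to -0.061, Vegfa from 0.049 to 0.34, Vegfb from 0.057 to 0.22, Vegfc from 0.072 to 0.30, Pgf from 0.00032 to 0.34 and Angpt1 from 0.10 to 0.40. Angpt2 in Fibroblast proliferating cells ran from 0.30 to 0.73, and the Vegfa difference between RPE and Fibroblast cells from -0.40 to -0.21. In Fibroblast 2, Vegfa ran from -0.030 to 0.16, Vegfb from -0.0032 to 0.11 and Angpt1 from -0.43 to 0.015. In RPE cells, Vegfa ran from -0.33 to 0.089 and Serpinf1 from -2.04 to 0.80. In Endothelial cells, Pgf kept its sign but ran from 0.10 (without Dram2 wt/wt replicate 2) to 0.92, Angpt2 ran from -0.19 to 0.41, Flt1 from -0.15 to 0.52, Kdr from -0.55 to 0.25 and Tek from -0.42 to 0.15, the last pair positive once replicate 2 of either genotype was left out. The difference in the share of Vegfa UMIs held by the 4 fibroblast types ran from -1.01 to 2.24 percentage points.

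Of all genes, the 0 called over the whole sample became 378 with DESeq2, 118 with the batch as a covariate, 242 and 117 once replicates 1 and 3 of Dram2 ko/ko were each left out, 1 once replicate 2 of Dram2 wt/wt was, and stayed at 0 under the other alternatives. In Fibroblast cells, 1 became 320 with DESeq2, 151 without a filter on low counts, 87 with the batch, and 234 and 150 once replicates 1 and 3 of Dram2 ko/ko were each left out. It became 0 with the replicate block, without the highest doublet scores, and once replicate 3 of Dram2 wt/wt or replicate 2 of Dram2 ko/ko was left out. In Fibroblast 2, 33 became 168 with DESeq2, 11 with edgeR, 8 with library size only, 71 without a filter and 2 with the replicate block, and ran from 0 to 121 with 1 sample left out. In Fibroblast proliferating cells, 113 became 320 with DESeq2, 62 with edgeR, 202 without a filter, 184 with the batch and 0 with the replicate block, and ran from 0 (without replicate 2 or 3 of Dram2 wt/wt, or replicate 2 of Dram2 ko/ko) to 290. DESeq2 called 20 genes in RPE, 13 in Endothelial, 23 in Fibroblast-like and 15 in Pericyte cells, where voom-limma called 0, 0, 0 and 1, with 573, 350, 367 and 499 at an unadjusted p under 0.05. Once replicate 1 of Dram2 ko/ko was left out, voom-limma called 85 in Fibroblast-like, 21 in Pericyte and 3 in Endothelial cells. In Myeloid cells, where 2 samples stood against 2, voom-limma called 2, edgeR 10, DESeq2 8, the fit without a filter on low counts 59 and the replicate block 32. Leaving out a sample there left 1 sample in a genotype, and those counts are not given. The causes were not tested.

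The replicate numbers did not pair the samples: deviations of same-numbered samples correlated at 0.10, -0.43 and 0.03. With a replicate block, 0 members were called over the whole sample and 0 within cell types, and Serpinf1 in RPE cells was 0.23. The 288 Endothelial cells, with 23 to 92 per sample, limit the precision of the receptor values.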
